A study of Rattus norvegicus with 6 samples.

Results

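The miR-130 and miR-301 family was examined in the lumbar spinal cord of rats with bone cancer pain (BCP). Its members were taken by name, as every row of the deposited count table for miR-130a, miR-130b, miR-301a or miR-301b with any arm suffix. This gave 8 arms of 4 precursors, out of 753 mature miRNAs listed. Small RNA libraries were made from 3 rats of the BCP group and 3 of the sham-operated group, 1 per rat, on day 14 after the injection. The BCP rats received living Walker 256 cells, a rat breast carcinoma line, in the medullary cavity of the left tibia, and the sham-operated rats received heat-killed cells of the same line, so every rat had surgery and tumor cell material in the bone. The tissue was the ipsilateral side of the lumbar enlargement, without meninges. The sample labels give the strain as Wistar, the methods of the study describe female Sprague Dawley rats, and no age is stated in the sources used here.

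A miRNA precursor is a hairpin from which a 5p and a 3p strand can be cut, and usually one of them is kept in the Argonaute protein while the other is degraded. Bases 2 to 8 from the 5′ end of the kept strand, the seed, select its target mRNAs. miR-130 and miR-301 are grouped as a family because their 3p strands share a seed, and they are known from work on blood vessels and on tumors. Their 5p strands are usually treated as the minor product. In the rat annotation of RefSeq on assembly GRCr8, Mir301b and Mir130b follow each other on the same strand with 0 annotated genes between them, and both lie inside 2610318N02Rikl. Mir301a lies within the bounds of Ska2 and Prr11, and Mir130a within no other annotated gene. The clustered pair is therefore miR-130b and miR-301b, and miR-130a and miR-301a stand apart from it.

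RefSeq holds the mature sequence of 7 of the 8 arms, and rno-miR-301a-3p has no entry there. They are shown because the arms fall into groups by seed, which is in capitals (bases 2 to 8), in the 5′ to 3′ direction. The 3p arms come first.
rno-miR-130a-3p: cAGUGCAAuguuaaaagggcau
rno-miR-130b-3p: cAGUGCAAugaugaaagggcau
rno-miR-301b-3p: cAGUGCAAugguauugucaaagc
rno-miR-130a-5p: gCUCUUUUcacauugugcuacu
rno-miR-130b-5p: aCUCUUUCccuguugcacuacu
rno-miR-301a-5p: gCUCUGACuuuauugcacuac
rno-miR-301b-5p: gCUCUGACuagguugcacuacu

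The 3 printed 3p arms carry the seed AGUGCAA, and no other rat miRNA in the RefSeq table has it. Each pair of them shares its first 10 bases. miR-130a-3p and miR-130b-3p are the closest pair, with the same base at 20 of 22 positions and the differences U11A and A13G, where the base of miR-130a-3p comes first and positions are counted from the 5′ end. The 5p arms carry 3 seeds. miR-301a-5p and miR-301b-5p share CUCUGAC, whereas CUCUUUC of miR-130b-5p and CUCUUUU of miR-130a-5p occur in no other rat miRNA of the table. The methods do not state how a read that matches more than one miRNA was assigned, so the split between miR-130a-3p and miR-130b-3p is uncertain to that extent.

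The total count lay between 13464349 and 23770677 per library, with BCP rat 1 the deepest. In this depth 3 counts, taken as the limit of what can be told from 0, are 0.127 to 0.221 CPM, that is counts for every 1000000 counted reads, here scaled by edgeR's TMM factors. Known neural miRNAs such as miR-9a-5p and miR-128-3p dominated the neuronal marker list, whose 5 members together reached 124511 to 140265 CPM in the 6 libraries. The family is a minor part of this RNA: all 8 arms together, with miR-301a entering at its listed 0, gave 44.9 to 50.2 CPM in the BCP rats and 21.9 to 28.0 CPM in the sham-operated rats. Of the 8 arms, 6 had counts in some library, 2 were listed at 0 in every library, and 3 passed the filter on low counts and were tested. The test was edgeR's quasi-likelihood test over 459 miRNAs with Benjamini-Hochberg adjustment, and a miRNA was called when its adjusted p was below 0.05 and its log2 fold change was above 0.8 in size.

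**Figure D1:**
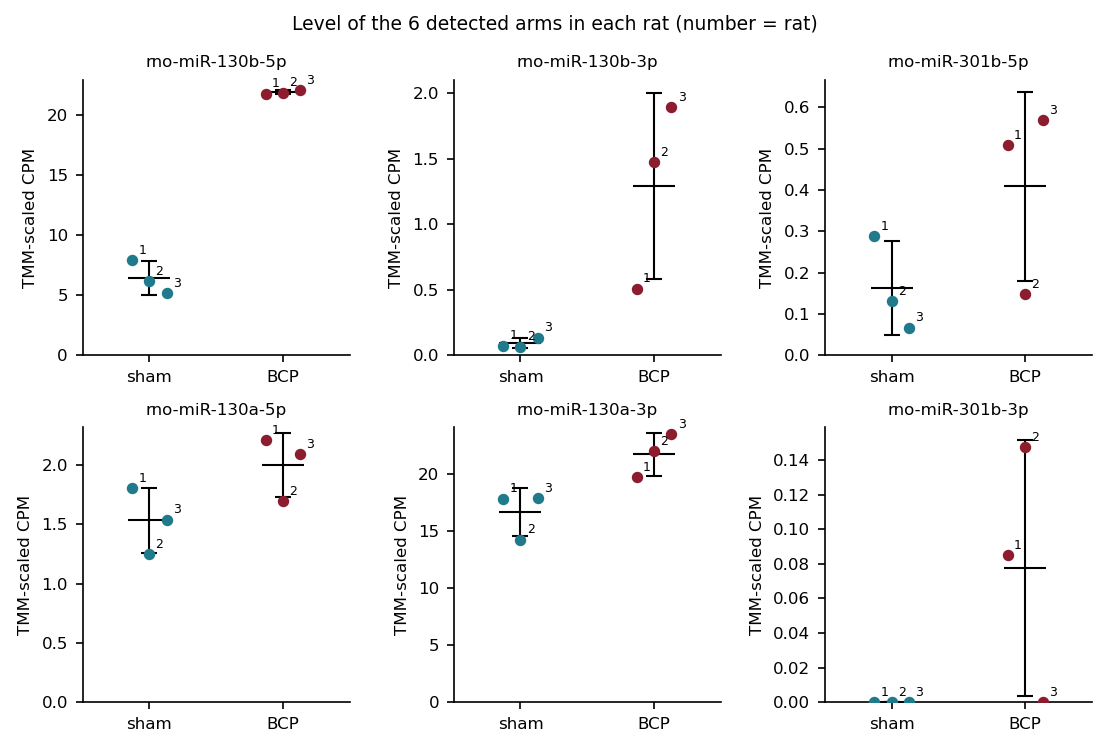
Level of the 6 arms with counts, in TMM-scaled CPM (linear axes from 0, one scale per panel), in the 3 sham-operated and the 3 BCP rats. Points are rats with their number, the long bar is the group mean and the whiskers are 1 SD. miR-130b-5p lay between 21.8 and 22.1 CPM in the BCP rats and between 5.15 and 7.93 CPM in the sham-operated rats.

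miR-130b-5p rose in the BCP group and was the only arm of the family that was called. BCP rats 1, 2 and 3 gave 514, 297 and 349 counts, and sham-operated rats 1, 2 and 3 gave 110, 94 and 77. Scaled for depth, this was 21.8, 21.9 and 22.1 CPM against 7.93, 6.18 and 5.15 CPM. The 3 BCP rats had nearly the same level, and each of them was above every sham-operated rat. The group means were 21.9 ± 0.141 CPM and 6.42 ± 1.41 CPM (SD, n = 3 rats each), which is 3.42-fold higher in the BCP group. On the log2 scale this was 1.77 (SE 0.170, adjusted p = 0.000989 in the edgeR quasi-likelihood test), the third smallest p of the 459. Called higher were 16 of the 459 miRNAs, or 3.49%, so 1 of 3 tested arms stands against that share. By its level alone miR-130b-5p was among the less abundant tested miRNAs: 286 of the 459 had a higher mean in the BCP group and 341 in the sham-operated group. In tissue RNA such as this, more cells of a type and more RNA per cell cannot be told apart.

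miR-130b-3p, the strand with the family seed from the same hairpin, was far scarcer, and its counts were also higher in the BCP group. BCP rats 1, 2 and 3 gave 12, 20 and 30 counts, against 1, 1 and 2 from sham-operated rats 1, 2 and 3. This was 0.509, 1.47 and 1.90 CPM in the BCP rats, whereas the sham-operated rats did not exceed 0.134 CPM, below the limit of 3 counts. The groups did not overlap, but BCP rat 1, the deepest library, had the lowest level of its group by a wide margin. Pooled over rats, 62 counts against 4 gave a ratio of 12.9, with an exact 95% interval from 4.79 to 48.8 that covers counting error only. The filter on low counts removed this arm, so the reported test gives no p for it. Without the filter its log2 fold change was 3.67 (SE 0.731, adjusted p = 0.0364 in the edgeR quasi-likelihood test, over 603 miRNAs). With the filter in place and 1 rat left out, which changes both the rats and the 465 to 470 miRNAs tested, the adjusted p was 0.00252 without BCP rat 1, and 0.147, 0.101 and 0.0548 without sham-operated rat 1, 2 or 3, and the arm failed the filter without BCP rat 2 or 3. In those fits the arm passed the filter only through its counts in the BCP rats, so they are a description and give no support for a difference. Fits without the filter were not run on fewer rats.

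In the listed counts the balance of the arms was opposite in miR-130b and miR-130a. In miR-130b the 5p strand held nearly all counts: the 3p strand made up 2.28%, 6.31% and 7.92% of both arms in BCP rats 1, 2 and 3, against 0.901%, 1.05% and 2.53% for sham-operated rats 1, 2 and 3. These shares rest on 317 to 526 counts in the BCP rats and on 79 to 111 in the sham-operated rats, and the exact binomial interval of the share in sham-operated rat 3 runs from 0.308% to 8.85%. In miR-130a the 3p strand held 90.0% to 92.9% of the counts in the BCP rats and 90.8% to 92.1% in the sham-operated rats. So by these counts the strand with the shared seed was the major one in miR-130a and the minor one in miR-130b, in every one of the 6 rats. Whether the libraries and the authors' counting caught both strands of a hairpin equally well was not tested.

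**Figure D2:**
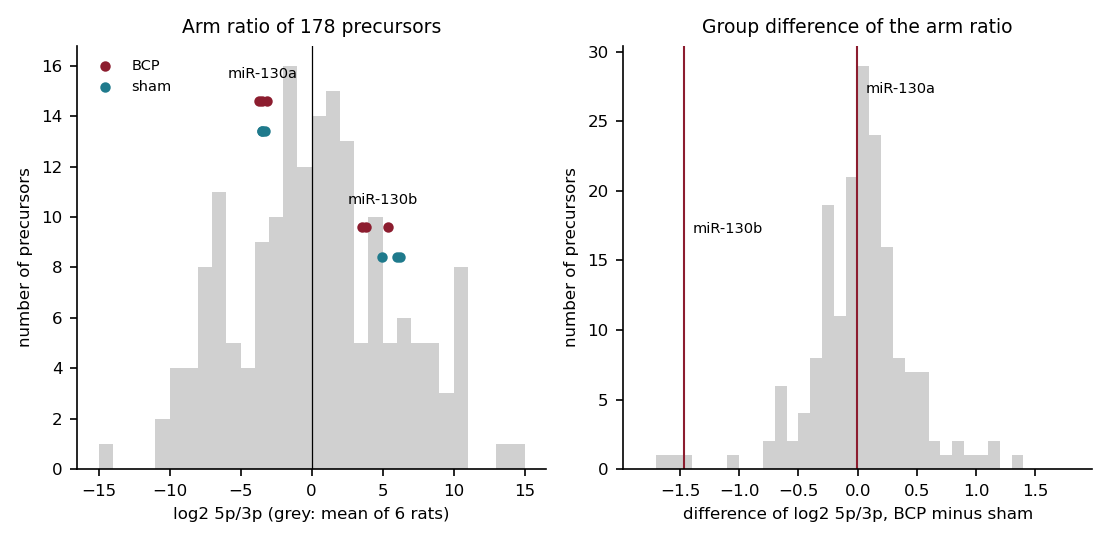
Left, histogram of the mean log2 ratio of 5p to 3p counts over the 6 rats for the 178 precursors with counts of both arms in every library, with the ratio of miR-130a and miR-130b in each rat as points (the height of the points has no meaning). Right, histogram of the group difference of the same ratio, BCP minus sham, with lines at -1.46 for miR-130b and -0.0067 for miR-130a.

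To see how common such a balance is, log2((5p count + 0.5)/(3p count + 0.5)) was computed for all precursors whose arms both had counts in every library. The 5p arm led in 92 and the 3p arm in 86 of these 178 precursors. miR-130b averaged 4.98 over the 6 rats, and 35 precursors were tilted further to 5p. miR-130a averaged -3.43, and 45 were tilted further to 3p. Neither precursor was at the edge of the range.

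Whether the arm balance of miR-130b differed between the groups was not settled by these libraries. The log2 ratio of 5p to 3p was 5.36, 3.86 and 3.52 for BCP rats 1, 2 and 3, against 6.20, 5.98 and 4.95 for sham-operated rats 1, 2 and 3. BCP rat 1 lay above sham-operated rat 3, so the groups overlapped. The difference was -1.46 (two-sided exact permutation test, p = 0.2, where 0.1 is the smallest p that 3 rats against 3 can give), and with a pseudocount of 1 it was -1.14. Only 2 of the 178 precursors had a lower difference, while 11, or 6.18%, had all BCP rats below all sham-operated rats, and miR-130b was not one of them. For miR-130a the difference was -0.0067 (exact permutation test, p = 1).

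miR-130a-3p, the most abundant strand with the family seed, was a little higher in the BCP rats but did not pass the test. BCP rats 1, 2 and 3 gave 466, 299 and 372 counts, and sham-operated rats 1, 2 and 3 gave 248, 217 and 268, or 19.8, 22.0 and 23.5 CPM against 17.9, 14.3 and 17.9 CPM. The groups did not overlap, which was so for 61 tested miRNAs that were higher in the BCP rats, or 13.3%. The means were 21.8 ± 1.89 CPM and 16.7 ± 2.10 CPM (SD, n = 3 rats each), which is 0.38 on the log2 scale (SE 0.144, adjusted p = 0.275 in the edgeR quasi-likelihood test). Its partner miR-130a-5p gave 52, 23 and 33 counts from BCP rats 1, 2 and 3, against 25, 19 and 23 from sham-operated rats 1, 2 and 3. At 1.69 to 2.21 CPM against 1.25 to 1.80 CPM, the groups overlapped, and the log2 fold change was 0.40 (SE 0.241, adjusted p = 0.546 in that edgeR test). The estimates of both arms of miR-130a were thus of like size, and neither was distinguished from 0.

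miR-301b, the neighbor of miR-130b in the genome, was close to the limit of detection. BCP rats 1, 2 and 3 gave 12, 2 and 9 counts of miR-301b-5p, and sham-operated rats 1, 2 and 3 gave 4, 2 and 1. BCP rat 2 was at the level of the sham-operated rats, and the groups overlapped. The pooled ratio was 2.73, with an exact 95% interval from 1.13 to 7.54 for counting error only, and without the filter the log2 fold change was 1.36 (SE 0.703, adjusted p = 0.487 in the edgeR quasi-likelihood test). Without single rats the log2 of the pooled ratio, 1.45 with all rats, lay between 1.07 without sham-operated rat 3 and 2.13 without sham-operated rat 1. miR-301b-3p had 2 counts in each of BCP rats 1 and 2 and 0 in the other libraries, which is under 3 counts everywhere, so no fold change is given. From hairpins adjacent in the genome, miR-130b thus gave 1507 counts in all and miR-301b gave 34.

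miR-301a was listed at 0 for both arms in all 6 libraries. Both arms were at 0 in 22 of the 280 precursors with both arms listed. Among them were miR-144 and miR-451 of red blood cells and miR-142 of blood leukocytes, but also miR-21, miR-98, miR-186 and miR-365, which are known from many tissues and are named here after their values were seen. A listed 0 is therefore not read as a level in this table: for counting error alone 0 counts over the 6 libraries would allow up to 0.0309 CPM, but that limit holds only if the reads of a miRNA were counted at all. The known miRNAs were identified by the authors by a length of 21 to 22 nucleotides. Of the listed miRNAs with a RefSeq sequence, many short ones were at 0 in every library. For 17, 18, 19 and 20 bases these were 71.4% of 7, 56.3% of 16, 52.6% of 19 and 44.7% of 38. For 21, 22 and 23 bases they were 18.4% of 152, 14.0% of 315 and 18.6% of 113. For 24 and 25 bases they were 8.33% of 24 and 0% of 4. miR-301a-5p has 21 bases. Whether reads of miR-301a were present but not counted was not tested.

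The clustered miR-130b was then set against miR-130a within each library, where the ratio of both counts does not depend on depth. In the sham-operated rats miR-130b-5p was the scarcer: its log2 ratio to miR-130a-3p was -1.17, -1.20 and -1.79 in rats 1, 2 and 3. In the BCP rats the strands were level, with 0.14, -0.0097 and -0.092. The groups did not overlap, and the difference was 1.40 (exact permutation p = 0.1, two-sided, which 3 rats against 3 cannot go below). On the linear scale this is a mean ratio of 1.01 in the BCP group and 0.382 in the sham-operated group. The RefSeq sequences of both strands have 22 bases, and the lengths of the reads behind the counts were not analysed here.

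**Figure D3:**
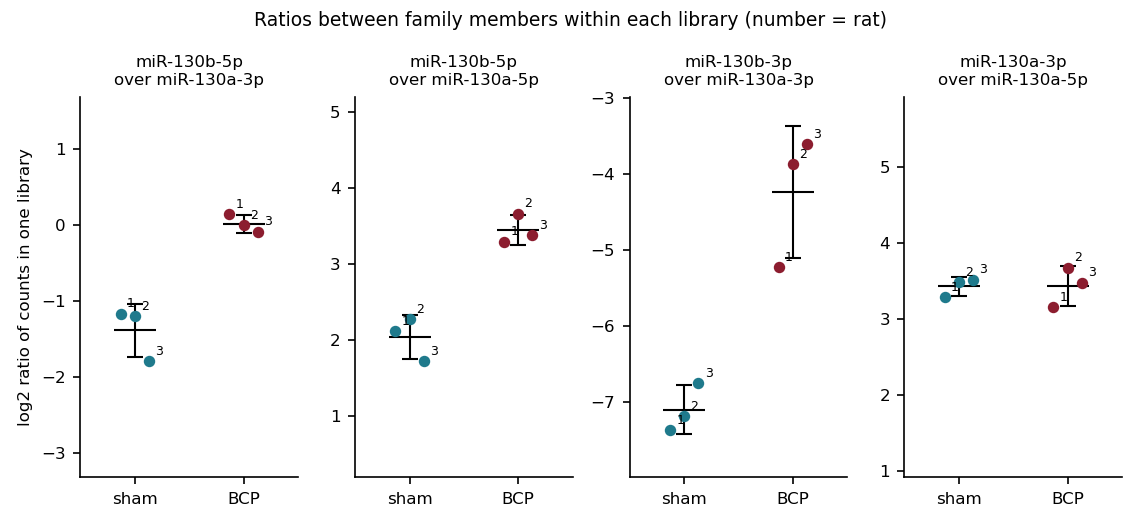
log2 ratio of the counts of 2 family members within each library, with 0.5 added to each count, in sham-operated and BCP rats. Points are rats with their number, the long bar is the group mean, the whiskers are 1 SD, and each panel spans 5 log2 units around its own center. The ratios of miR-130b-5p to miR-130a parted the groups, and the ratio of the miR-130a arms, 3.43 in both groups, did not. The ratio of miR-130b-3p to miR-130a-3p did too, but it rests on 1 or 2 counts in each sham-operated rat, below the limit of 3 counts.

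Against the other strand of miR-130a the groups also did not overlap. The log2 ratio of miR-130b-5p to miR-130a-5p was 3.45 ± 0.193 in the BCP group and 2.04 ± 0.286 in the sham-operated group (SD, n = 3 rats each). That of miR-130b-3p to miR-130a-3p was -4.23 ± 0.865 and -7.10 ± 0.320, a difference of 2.87 that rests on 1 or 2 counts in each sham-operated rat. Among the 6 arms with counts 15 pairs were compared. The 4 ratios between an arm of miR-130b and an arm of miR-130a had no overlap between the groups (exact permutation p = 0.1 each, 0.375 adjusted over the 15 pairs). These ratios share their arms and are not separate results. Those with miR-130b-3p rest on sham-operated counts below the limit of 3 and give no support for a difference. How often ratios of other miRNA pairs part the groups was not computed, and 13.3% of single tested miRNAs were higher without overlap. For miR-301b-5p against miR-130a-3p the groups overlapped, with a difference of 0.76 (exact permutation p = 0.3) that fell to 0.31 without sham-operated rat 3 and reached 1.31 without BCP rat 2. miR-301b-5p against miR-130b-5p also overlapped, so at this depth the data do not place miR-301b-5p with either.

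Summed as the clustered pair, miR-130b and miR-301b together gave 22.9 to 24.5 CPM in the BCP rats and 5.35 to 8.29 CPM in the sham-operated rats. The remaining members, miR-130a and miR-301a, which do not adjoin each other in the genome, gave 22.0 to 25.6 CPM and 15.5 to 19.7 CPM. The first sum is almost entirely miR-130b-5p and the second is miR-130a alone, since miR-301a is listed at 0. Summed by the shared seed, the 4 listed 3p arms gave 20.4, 23.6 and 25.4 CPM in BCP rats 1, 2 and 3, against 18.0, 14.3 and 18.1 CPM for sham-operated rats 1, 2 and 3. miR-130a-3p made up 92.5% to 97.1% of that sum in the BCP rats and 99.3% to 99.6% in the sham-operated rats. miR-130b-5p, the arm that was called, carries another seed and is not in this sum.

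**Figure D4:**
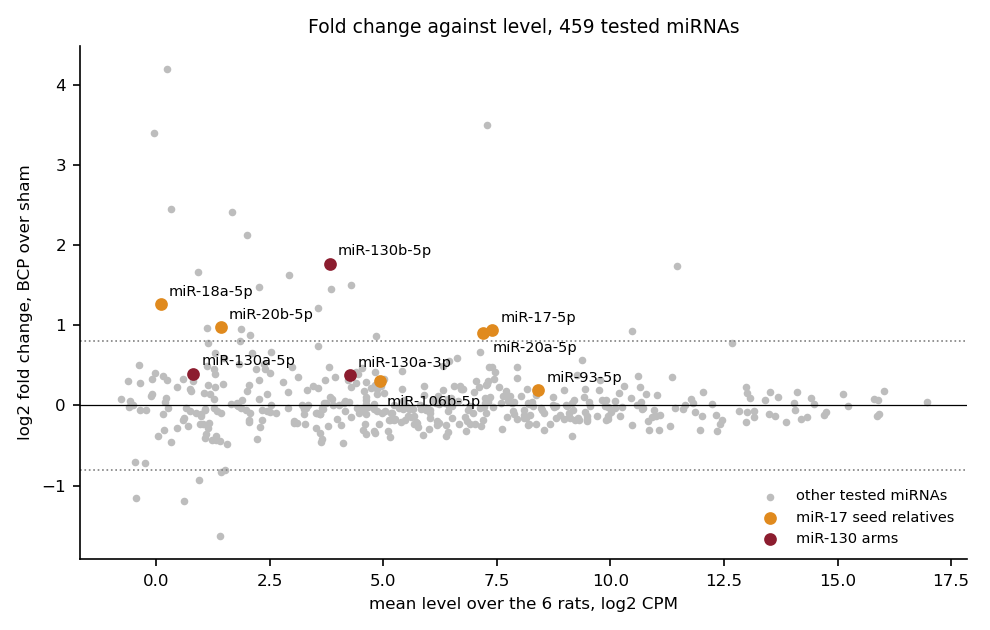
log2 fold change (BCP over sham) against the mean level over the 6 rats in log2 CPM for the 459 tested miRNAs, with the 3 tested arms of the family and the 6 miR-17 seed relatives marked. Dotted lines are at the threshold of 0.8. miR-130b-5p, at 1.77, lies above both arms of miR-130a, at 0.38 and 0.40.

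The family was compared with the miR-17 group, well known for promoting proliferation, because 5 of its 6 arms compared carry the seed AAAGUGC, which shares the letters AGUGC with AGUGCAA. The other arm, miR-18a-5p, carries AAGGUGC. All 6 were tested and 1 was called, miR-17-5p, with a log2 fold change of 0.94 (SE 0.152, adjusted p = 0.0128 in the edgeR quasi-likelihood test). That call was lost without BCP rat 2 (adjusted p = 0.0751), BCP rat 3 (0.0624) or sham-operated rat 1 (0.110) in the same edgeR test. miR-20a-5p, with an adjusted p of 0.0683 there, was called by DESeq2, with the replicate block in edgeR (adjusted p = 0.00974) and when BCP rat 1 or sham-operated rat 3 was left out, and miR-20b-5p when BCP rat 1 was left out. The likelihood ratio test and the exact test of edgeR called miR-20a-5p, miR-20b-5p and miR-18a-5p. In 5 of the 6 all BCP rats were above all sham-operated rats. Over all tested miRNAs the shares were 3.49% called higher and 13.3% higher without overlap. The median log2 fold change of these 6 was 0.92, against 0.40 for the 3 tested family arms and -0.0034 for all tested miRNAs. Of those 3 family arms only miR-130a-3p carries the family seed, so the medians do not compare groups related by seed. miR-130a-3p, the tested arm with the family seed, lay below 4 of the 6, since miR-93-5p had 0.19 and miR-106b-5p 0.30, both with adjusted p above 0.5. These lists are described by counts and medians, and the difference between them was not tested.

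The miRNAs whose pattern over the 6 libraries was most like that of miR-130b-5p were miR-146a-5p (Pearson r = 0.991 of log2 CPM), miR-155-3p (0.984) and miR-155-5p (0.982), which are known from the inflammatory response of myeloid cells. All 3 were called higher in the BCP group, and the libraries share their group difference, so a high r is set in large part by that difference. A total of 22 tested miRNAs had r above 0.9 with miR-130b-5p. The pattern of miR-130a-3p was most like that of miR-29a-3p (0.991), miR-16-5p (0.986) and miR-500-3p (0.982), of which 0 were called. For miR-130a-5p they were miR-184 (0.933), miR-15b-3p (0.914) and miR-223-3p (0.895). Between miR-130b-5p and miR-130a-3p, r was 0.821.

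Markers of other cells were read beside miR-130b-5p. Of the 4 myeloid and lymphoid markers, miR-223-3p was higher in the BCP group (log2 fold change 2.13, adjusted p = 0.0190 in the edgeR quasi-likelihood test), miR-150-5p had -0.13 and both arms of miR-142 were at 0. Their summed level, 975 to 1283 CPM in the BCP rats and 1090 to 1379 CPM in the sham-operated rats, is almost entirely miR-150-5p, since rno-miR-223-3p lay between 5.57 and 7.93 CPM in the BCP rats and between 0.658 and 2.31 CPM in the sham-operated rats. Of the 6 epithelial markers, which a breast carcinoma could carry, 4 were tested and 1 was called, miR-200c-3p (log2 fold change 1.63), where 3.49% of all tested miRNAs were called higher. Not called were miR-203a-3p, with a log2 fold change of 1.22, miR-200a-3p with 0.50 and miR-200b-3p with -0.23. In 3 of the 4 tested, all but miR-200b-3p, all BCP rats were above all sham-operated rats, which was so for 13.3% of all tested miRNAs. Untested miR-429 averaged 0.225 CPM in the BCP group and 0.248 CPM in the sham-operated group, and miR-141-3p 0.200 and 0.0944 CPM. The sum of the 6 was 23.1 to 37.0 CPM in the BCP rats and 12.8 to 15.2 CPM in the sham-operated rats, with 0 of the 6 at 0 in every library. With that share called over all miRNAs, little can be read from short lists: none of the tested markers of neurons, oligodendrocytes, endothelium and smooth muscle, or skeletal muscle was called in this test, with log2 fold changes from -0.21 to 0.35, while of the erythroid markers 3 were listed, all at 0. Like those of miR-142, these zeros cannot be read as absence, since miR-21, miR-98 and miR-186 are also listed at 0 in every library. The part of any of these cells in the level of miR-130b-5p was not tested.

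**Figure D5:**
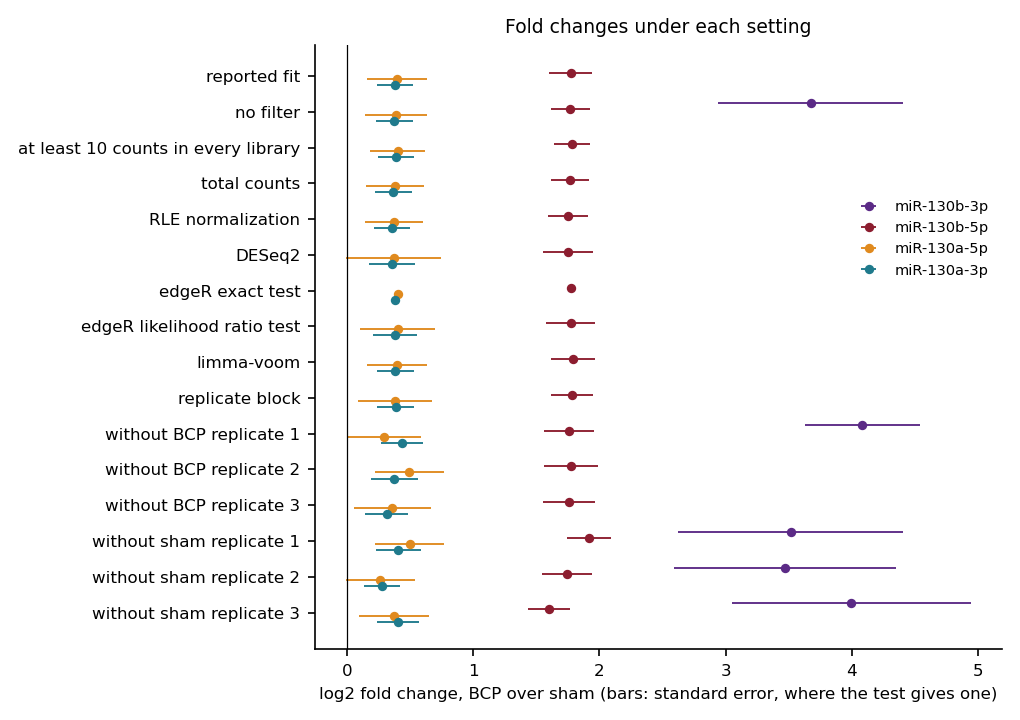
log2 fold change (BCP over sham) of 4 arms under the reported fit and each alternative, with the standard error as bars where the test gives one. miR-130b-5p stayed between 1.60 and 1.92, and miR-130b-3p appears only in the settings where it passed the filter.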

How the data were processed

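Small RNA of the ipsilateral lumbar spinal cord was sequenced from 3 BCP and 3 sham-operated rats, which are separate animals. For trimming and filtering the authors used FASTX Toolkit 0.0.13. Clean reads within a length window were aligned to Rnor 6.0 by Bowtie (Bowtie2 2.2.3 in the submitters' processing notes), and known miRNAs were named by length and miRBase. The deposited values are raw read counts for 753 mature miRNAs, not normalized. The paper names edgeR without the test.

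The analysis ran edgeR 4.0.16 under R 4.3.3: filterByExpr with a minimum count of 10 (459 miRNAs kept), TMM, the quasi-likelihood test and Benjamini-Hochberg adjustment. Standard errors come from the log2 fold change and the F statistic. Exact tests and intervals used scipy 1.17.1, with 0.5 added to counts in ratios and a prior count of 2 in correlations. The test was checked on simulated data. Between libraries of a group, chi-square per degree of freedom was at least 59.0, so none was a copy. Alternatives were no filter, at least 10 counts in every library, total counts, RLE, DESeq2 1.42.0, the likelihood ratio and exact tests of edgeR, voom (limma 3.58.1), the replicate block, no fold change threshold, a pseudocount of 1 and leaving out each rat.

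Named are all listed arms of the family, other miRNAs with its seed, 6 miR-17 seed relatives, marker lists, and for each tested arm the 3 miRNAs with the highest r. miR-144, miR-142 and miR-451-5p are named as members of the marker lists. The members and lists were chosen with earlier results of these data known. Sequences are from RefSeq (GRCr8), which matched 688 of the listed miRNAs by name; genome coordinates are not given because the counts rest on another assembly. Count columns left without a sample: 0.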

Additional observations from a re-analysis of the deposited data

How the results depend on the processing

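With all 6 rats, miR-130b-5p was called under every test and normalization run, and without single rats its log2 fold change ranged from 1.60 to 1.92 and its adjusted p from 0.00252 to 0.00889. miR-130a-3p and miR-130a-5p kept their sign and were called under none of the 15 alternatives each, with an adjusted p from 0.166 to 0.815 and from 0.377 to 0.958. miR-130b-3p, removed by the filter, had a log2 fold change of 3.67 and was called with no filter; in the 4 fits without a rat where it passed the filter it ranged from 3.47 to 4.08 and was called only without BCP rat 1, having passed the filter only through the BCP rats, so these values give no support for a difference. The difference in the log2 ratio of the miR-130a arms, 0.0067 for 3p over 5p, changed sign without single rats, from -0.11 to 0.15. Without single rats, the difference for miR-130b-5p to miR-130b-3p ranged from -2.02 to -1.10 and that for miR-130b-5p to miR-130a-3p from 1.20 to 1.51. Over all miRNAs 16 were called; the likelihood ratio test called 25, and leaving out rats gave 8 to 20, with 8 without BCP rat 2, 9 without sham-operated rat 1 and 10 without BCP rat 3. All 16 were higher in the BCP group. With total counts in place of TMM 16 were higher and 2 lower, with the likelihood ratio test 22 and 3, and with the exact test 22 and 2. RLE, the filter of at least 10 counts in every library, and leaving out sham-operated rat 3 each gave 1 lower. What caused the spread in these counts was not tested. Rats with the same number are different animals, and their deviations from the group means correlated by -0.43 to 0.61. Those of BCP and sham-operated rats with different numbers correlated by -0.60 to 0.67. With the replicate block 18 were called, miR-130b-5p had 1.78, and no call on a family arm changed. Depth limits miR-130b-3p in the sham-operated rats and both arms of miR-301b.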
